A study of Mus musculus with 12 samples.

Results

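The mRNAs described here are 9 markers of GABAergic interneurons: Gad1, Gad2, Slc32a1, Sst, Npy, Pvalb, Vip, Dlx1 and Lhx6. They were chosen by name, as known inhibitory neuron genes, out of 27179 genes counted in mouse hippocampal cultures. All 9 were found by their Entrez identifiers, and 7 passed the filter for testing, since Sst and Dlx1 had too few counts.

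GABAergic interneurons are the inhibitory minority of hippocampal neurons. They make GABA from glutamate with 2 glutamate decarboxylases, GAD67 from Gad1 and GAD65 from Gad2, and load it into synaptic vesicles with the transporter VGAT from Slc32a1. Their subclasses are told apart by a calcium-binding protein or a neuropeptide, such as parvalbumin, somatostatin, neuropeptide Y or vasoactive intestinal peptide. The transcription factors Dlx1 and Lhx6 act earlier, while interneurons are born and migrate, and are kept at lower levels in mature cells.

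The cultures were primary neurons from the hippocampi of C57BL/6 pups at postnatal day 0 or 1, grown for 17 or 18 days in vitro on porous Transwell membranes, as the labels and the series text give them, while the study's methods put the pups at day 0 and name FVB mice beside C57BL/6. Somas were scraped off, and neurites, the projections that had grown through the pores, were lysed from the membrane that remained. The 4 groups were Ctrl somas, MG132 somas, Ctrl neurites and MG132 neurites, with 3 libraries in each. MG132, an inhibitor of the proteasome, was given at 10 uM for 7 h, and Ctrl cultures received the solvent DMSO, per a figure legend of the study. PolyA-selected RNA was sequenced, and total counts per library ran from 6799464 to 10052321 in Ctrl somas, 4247610 to 18411436 in MG132 somas, 5750510 to 9460135 in Ctrl neurites and 6545752 to 22166347 in MG132 neurites.

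The labelled cell type was hippocampal neurons, and pan-neuronal and excitatory markers were present in every library, but so were glial markers. Levels are given in CPM, a gene's counts relative to the library total, after scaling by TMM, edgeR's correction for library composition. A list of 10 pan-neuronal genes (Snap25 and Map2 highest per kilobase over all 12 libraries, as for every list below) summed to 1317 ± 281 CPM in Ctrl somas and 1367 ± 433 CPM in Ctrl neurites (SD, n = 3). A list of 10 astrocyte genes summed to 5474 ± 602 CPM in Ctrl somas and 22888 ± 2871 CPM in Ctrl neurites. Most of that difference was Gfap, the filament of astrocytes, at 1967 ± 519.8 and 17794 ± 3308 CPM, and the other 9 genes summed to 3507 ± 139.9 and 5094 ± 439 CPM. Of the 10, Gfap, S100b and Slc1a2 were called higher and Gja1 lower in Ctrl neurites than in Ctrl somas, and the median log2 fold change was -0.01. Of all tested genes, 6.15% were called higher and 1.28% lower in that comparison, with a median of -0.04. Glial marker mRNAs were thus measured in the neurite as well as the soma fractions. In such bulk libraries, fewer cells of a type and less RNA per cell cannot be told apart.

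The libraries numbered 2 stood apart in the decarboxylases relative to an excitatory marker. The ratio of Gad1 counts to counts of Slc17a7, the vesicular glutamate transporter of excitatory neurons, was 0.750 in Ctrl somas 2, 0.637 in MG132 somas 2, 0.455 in Ctrl neurites 2 and 0.412 in MG132 neurites 2. In the other 8 libraries it lay between 0.120 and 0.295, so the libraries numbered 2 did not overlap with the others. The ratio of Gad2 to Slc17a7 counts split the libraries in the same way, at 0.327 to 0.615 against 0.0715 to 0.212. Both sides of the ratio entered: in CPM, Gad1 was highest in number 2 in 3 of 4 groups, and Slc17a7 was lowest there in 3 of 4, as at 151 CPM in Ctrl somas 2 against 299.7 and 192 CPM in Ctrl somas 1 and 3. Over the 9 genes and 4 groups, the library numbered 2 held the highest level in 21 of 36 sets, number 1 in 7 and number 3 in 8, and for Pvalb number 2 was highest in no group. Other lists set the libraries numbered 2 apart too. In each group number 2 held the highest sum of 6 genes of dividing cells and the lowest of 10 genes of the oligodendrocyte lineage. In Ctrl somas 2 the first sum was 159 CPM, against 42.8 and 72.8 CPM in Ctrl somas 1 and 3. The second was 1637 CPM, against 3366 and 6764 CPM. The calls of the 9 markers, and how many calls of the other lists were kept, are therefore also given without those 4 libraries, an alternative chosen after their values were seen.

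The enzymes of GABA synthesis were the most heavily counted of the 9. Gad1 (Entrez 14415, GRCm38 chr2:70553072-70602014, plus strand) stood at 55.0, 113 and 56.6 CPM in Ctrl somas 1 to 3 and at 61.5, 80.9 and 36.9 CPM in MG132 somas. It stood at 32.8, 45.1 and 20.7 CPM in Ctrl neurites and at 33.1, 28.5 and 14.4 CPM in MG132 neurites. Every neurite library was below its soma counterpart, while Ctrl and MG132 values overlapped within each fraction. A gene on the opposite strand, Gad1os, overlaps Gad1 but held 21 counts in all 12 libraries, against 5810 for Gad1.

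Gad2 (Entrez 14417, chr2:22622205-22693874, plus strand) followed, at 32.4, 92.8 and 25.7 CPM in the somas of Ctrl cultures and 50.5, 60.1 and 21.2 CPM in those given MG132. In neurites it stood at 12.7, 40.6 and 7.90 CPM without MG132 and at 27.6, 22.7 and 9.06 CPM with it. The spread of Gad2 between libraries of 1 group was wide, up to 37.0 CPM (SD) around a mean of 50.3 CPM in Ctrl somas. Per kilobase of exon the ratio of Gad2 to Gad1 was 0.497 to 1.17 over the 12 libraries, so the 2 decarboxylase mRNAs were of like abundance.

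Slc32a1 (Entrez 22348, chr2:158610767-158615748, plus strand), the transporter that fills inhibitory vesicles, was much scarcer. Its level was 3.38, 6.43 and 2.21 CPM in Ctrl somas, next to 3.98, 6.35 and 2.58 CPM in MG132 somas, 4.23, 1.57 and 2.69 CPM in Ctrl neurites and 1.14, 1.31 and 2.13 CPM in MG132 neurites. The MG132 neurite libraries lay below all MG132 soma libraries, as did those of 17.9% of all tested genes, and the Ctrl fractions overlapped.

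Parvalbumin (Pvalb, Entrez 19293, chr15:78191114-78206400, minus strand), the calcium buffer of fast-spiking basket cells, had the smallest spread of the 9 in Ctrl somas relative to its mean. It stood at 13.7, 11.8 and 11.5 CPM there and at 16.1, 10.96 and 6.89 CPM in Ctrl neurites. After MG132 it stood at 3.79, 3.37 and 4.63 CPM in somas and at 0.684, 1.85 and 2.49 CPM in neurites. All 6 MG132 libraries were below all 6 Ctrl libraries. Within a fraction, 22.7% of all tested genes in somas and 20.4% in neurites lay lower after MG132 without overlap. Behind the Pvalb levels were 98 to 198 counts in the best-covered library of each Ctrl group, and 3, 41 and 14 counts in the MG132 neurites.

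RefSeq (GRCm38.p6) places 2 starts on Pvalb, whose surroundings differ in CG content. The counts sum over all transcripts of a gene, so which start these cells used was not measured. The 30 bases before each start are shown, 5′ to 3′ on the minus strand, with CG dinucleotides in capitals; the first, at chr15:78206401-78206430, holds 1 of them and the second, at chr15:78204238-78204267, holds 6.
Pvalb first start: tttaagtggctgtcccaccaCGagtctcat
Pvalb second start: ccaggcCGagCGggCGtgCGcctggCGCGc
In the whole window from 250 bases before to 50 bases after, these starts held 5 and 25 CG dinucleotides, where the median of 32851 promoters was 7.

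Of the neuropeptides, Npy (Entrez 109648, chr6:49822710-49829507, plus strand), found in several interneuron classes, was the best represented. It stood at 8.98, 23.7 and 24.5 CPM in Ctrl somas, next to 6.10, 21.4 and 9.14 CPM in MG132 somas, 4.23, 23.4 and 15.5 CPM in Ctrl neurites and 4.56, 9.68 and 7.99 CPM in MG132 neurites. All 4 groups overlapped, and library 1 was the lowest of each group. Vip (Entrez 22353, chr10:5639218-5647617, plus strand), the peptide of interneurons that mainly inhibit other interneurons, was at 0.662 to 5.66 CPM in Ctrl somas, 0 to 2.17 in MG132 somas, 0.673 to 6.60 in Ctrl neurites and 0.456 to 1.54 in MG132 neurites.

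Sst (Entrez 20604, chr16:23889573-23890958, minus strand), the peptide of dendrite-targeting interneurons, was close to the limit of detection. Its counts were 5, 0 and 13 in Ctrl somas, 3, 2 and 14 in MG132 somas, 0, 12 and 2 in Ctrl neurites and 6, 8 and 6 in MG132 neurites. A count of 0 allows up to 3 counts, which is 0.123 to 0.794 CPM depending on the library. The Sst promoter is shown because it was the 1 of 12 promoters of the 9 genes that held the cAMP response element, TGACGTCA on either strand, written in capitals with 11 bases on each side (GRCm38.p6, chr16:23890874-23890903, minus strand, first capital 48 bases before the start).
Sst promoter: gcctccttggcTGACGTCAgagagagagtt
That element was in 1.79% of all 32851 promoters of the same length. The heat shock element core GAANNTTC, in 7.86% of all promoters, and the homeodomain core TAATTA, in 5.29%, were in none of the 12, which says only that those letters are not in these windows.

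The developmental transcription factors were sparse. Lhx6 (Entrez 16874, chr2:36081953-36105408, minus strand), which specifies parvalbumin and somatostatin interneurons, gave 4, 17 and 0 counts in Ctrl somas, 15, 13 and 20 in MG132 somas, 0, 15 and 0 in Ctrl neurites and 0, 21 and 0 in MG132 neurites. In both neurite groups every Lhx6 count came from library 2. Dlx1 (Entrez 13390, chr2:71528113-71533981, plus strand), a homeobox factor of newborn interneurons, gave 27, 6 and 13 counts in Ctrl somas, 3, 5 and 8 in MG132 somas, 1, 2 and 3 in Ctrl neurites and 0, 2 and 0 in MG132 neurites. Its values are uncertain, since the antisense gene Dlx1as overlaps it and held 64 counts in all, against 70 for Dlx1, and reads of the 2 strands cannot be told apart in counts made without strand. Of the 9 genes, 5 lie on chromosome 2, which carries 8.08% of the genes with a known position.

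**Figure D1:**
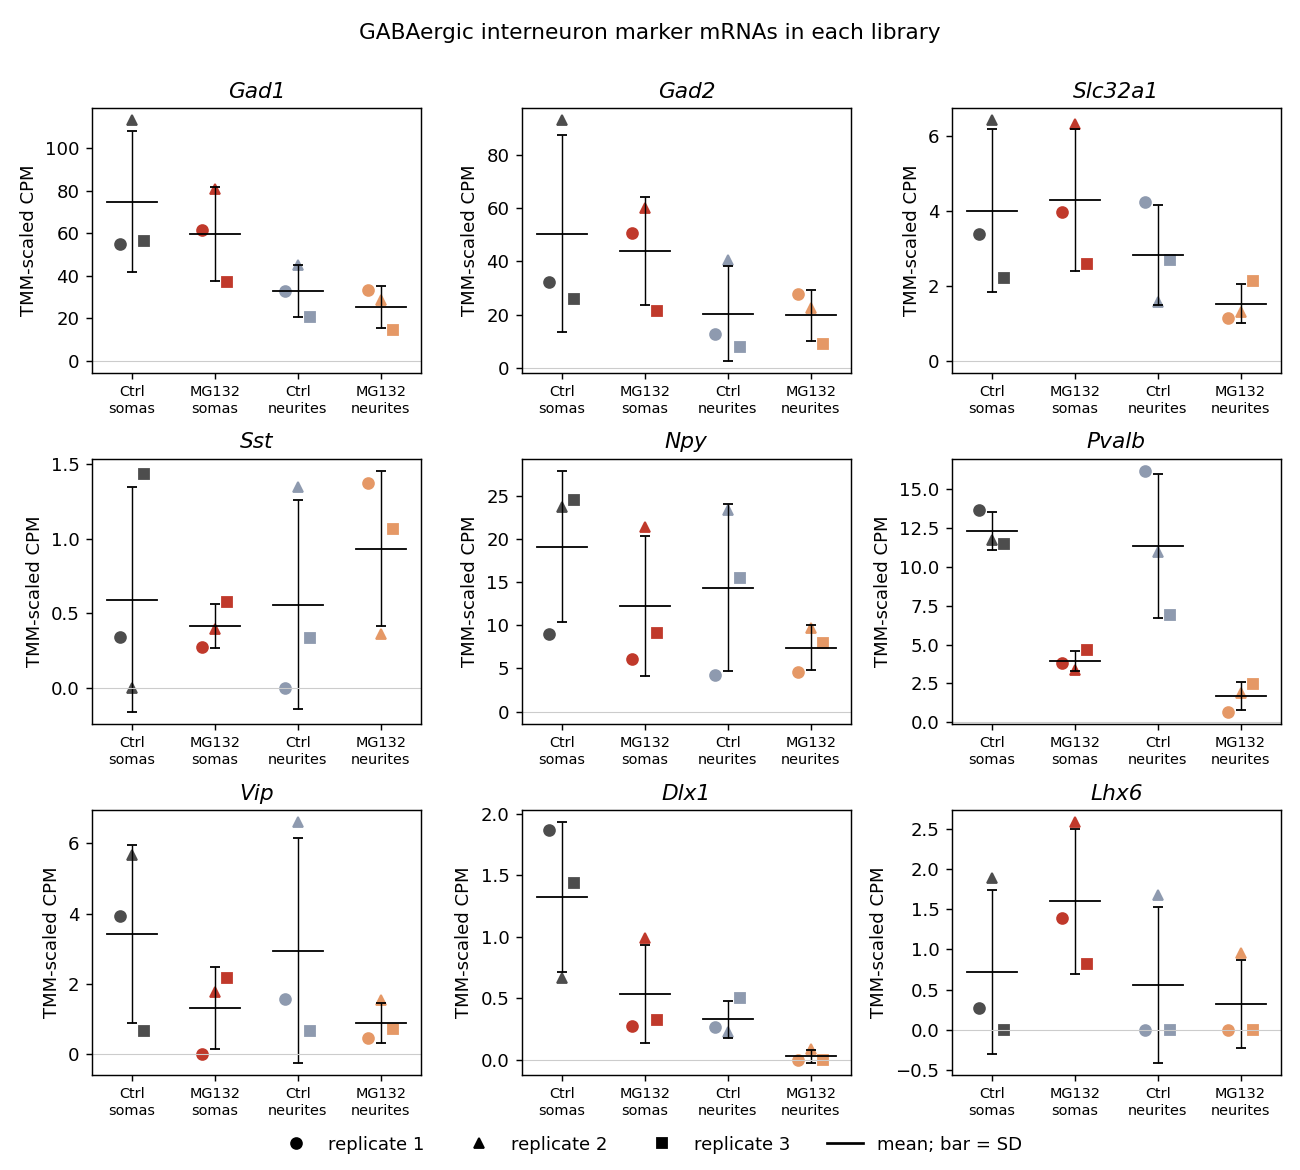
Level of each of the 9 interneuron markers in TMM-scaled CPM (y axis, a linear scale per gene) in the 12 libraries by group (x axis). Symbols are libraries by replicate number, horizontal lines are group means and bars are SD of 3 libraries, which run below 0 where the spread exceeds the mean. For Pvalb the 6 MG132 libraries, at 0.684 to 4.63 CPM, lie below the 6 Ctrl libraries, at 6.89 to 16.1 CPM.

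Ranked per kilobase of exon, Npy had the highest level in each of the 4 groups, at 33.7 ± 15.5 CPM per kb in Ctrl somas, 21.6 ± 14.3 in MG132 somas, 25.4 ± 17.0 in Ctrl neurites and 13.1 ± 4.603 in MG132 neurites (SD, n = 3). It overlapped within 1 SD with the second gene in MG132 somas and Ctrl neurites, and in Ctrl neurites 1 Pvalb was higher (15.5 against 7.48 CPM per kb). In Ctrl somas Pvalb was second at 11.8 ± 1.15 CPM per kb, followed by Gad1 (9.81 ± 4.34) and Gad2 (8.56 ± 6.29), and these neighbours overlapped within 1 SD. Slc32a1 (1.43 ± 0.780), Vip (1.005 ± 0.746) and Sst (0.823 ± 1.04) formed a lower tier, with Dlx1 (0.245 ± 0.113) and Lhx6 (0.150 ± 0.212) last, and each of these overlapped with the next within 1 SD. After MG132, Pvalb stood below both decarboxylases in each fraction, at 3.78 ± 0.617 CPM per kb in somas and 1.61 ± 0.878 in neurites. It overlapped within 1 SD with the decarboxylase ranked next above it, Gad2 in somas and Gad1 in neurites, and it was above Gad2 in MG132 somas 3 (4.45 against 3.61 CPM per kb). In MG132 neurites 3 it was above both, at 2.39 CPM per kb against 1.88 for Gad1 and 1.54 for Gad2.

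Whether proteasome inhibition altered these mRNAs in the cell bodies was asked by comparing MG132 somas with Ctrl somas. Pvalb fell, to a level 3.09-fold lower than in Ctrl somas (log2 fold change -1.63, SE 0.41), with a mean of 3.93 ± 0.643 CPM against 12.3 ± 1.20 CPM (SD, n = 3). The other 6 tested markers were not called: Gad1 had a log2 fold change of -0.33 (SE 0.37), Gad2 of -0.20 (SE 0.59), Slc32a1 of 0.08 (SE 0.60), Npy of -0.67 (SE 0.56), Vip of -1.36 (SE 1.11) and Lhx6 of 1.12 (SE 1.48). Single libraries weighed on these values. Leaving out 1 moved Npy from -1.30 (without MG132 somas replicate 2) to -0.34 (without MG132 somas replicate 1). Vip moved from -2.09 (without MG132 somas replicate 3) to -0.78 (without MG132 somas replicate 1). Lhx6 moved from 0.57 (without Ctrl somas replicate 3) to 3.26 (without Ctrl somas replicate 2). With the replicate number kept as a block, Lhx6 stood at 2.40. The sign turned on leaving out 1 library for Gad1 (-0.60 to 0.10), Gad2 (-0.49 to 0.59) and Slc32a1 (-0.29 to 0.59). For Gad1 the 95% interval of the log2 fold change was -1.13 to 0.47, and for Gad2 it was -1.46 to 1.05.

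A gene was called at an adjusted p under 0.01 and a change of over 1.7-fold by the quasi-likelihood test of edgeR, with p-values adjusted after Benjamini and Hochberg over 14185 genes, and these p-values measure only the spread between the libraries, which nothing in the labels ties to separate cultures. Thus 1 of 7 tested markers was called, where 14.6% of all genes were called and 5.58% were called lower. The adjusted p of Pvalb was 0.00896. The median log2 fold change of the 7 markers was -0.33, beside -0.07 over all tested genes and -0.60 over 10 excitatory neuron genes. Without the libraries numbered 2 the median of the markers was -1.03, over 7 markers of which Dlx1 had taken the place of Lhx6. That of the excitatory genes was then -0.63. Pvalb was 1 of the 22.7% of genes whose 3 MG132 soma libraries all lay below the 3 Ctrl soma libraries. The call was a narrow one, since it was lost on leaving out any 1 of the 6 soma libraries, with adjusted p from 0.0197 without Ctrl somas replicate 3 to 0.0362 without Ctrl somas replicate 1 and log2 fold changes of -1.76 to -1.53. It was also lost on total counts (edgeR adjusted p = 0.0232) and without the libraries numbered 2 (log2 fold change -1.57, edgeR adjusted p = 0.0835). With the replicate number as a block it was kept (edgeR adjusted p = 0.00457), as it was by DESeq2 (DESeq2 adjusted p = 0.000142).

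In the neurites the same comparison gave the largest change of the 7 tested markers. Pvalb fell, to a level 6.46-fold lower than in Ctrl neurites (log2 fold change -2.69, SE 0.45), with means of 1.67 ± 0.914 and 11.3 ± 4.63 CPM (SD, n = 3). Its edgeR adjusted p was 0.000497, and all 6 fits that left out 1 neurite library kept the call, with adjusted p of at most 0.00306. Without the libraries numbered 2 the log2 fold change was -2.79 and the edgeR adjusted p 0.0165, above the threshold. The 3 MG132 libraries lay below the 3 Ctrl libraries, as they did for 20.4% of all genes.

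The other 6 tested markers were not called in the neurites, where 14.7% of all genes were called and 5.44% were called lower. Their log2 fold changes were -0.38 (SE 0.39) for Gad1, -0.07 (SE 0.61) for Gad2, -0.86 (SE 0.65) for Slc32a1, -0.95 (SE 0.57) for Npy, -1.63 (SE 1.15) for Vip and -0.60 (SE 1.56) for Lhx6. The value for Vip ran from -2.34 without MG132 neurites replicate 2 to -0.18 without Ctrl neurites replicate 2. Leaving out 1 library moved Npy from -1.35 to -0.41 and Slc32a1 from -1.17 to -0.47. It turned the sign of Gad1 (-0.59 to 0.026), Gad2 (-0.35 to 0.96) and Lhx6 (-5.55 to 5.12). The median of the 7 was -0.86, beside -0.16 over all tested genes and -0.45 over 10 excitatory neuron genes. The 95% interval for Gad2, -1.38 to 1.23, allows a change of over 1.7-fold in either direction. Dlx1, not tested, was at 0.0301 ± 0.0522 CPM in MG132 neurites and 0.331 ± 0.152 CPM in Ctrl neurites, from 2 and 6 counts in all.

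**Figure D2:**
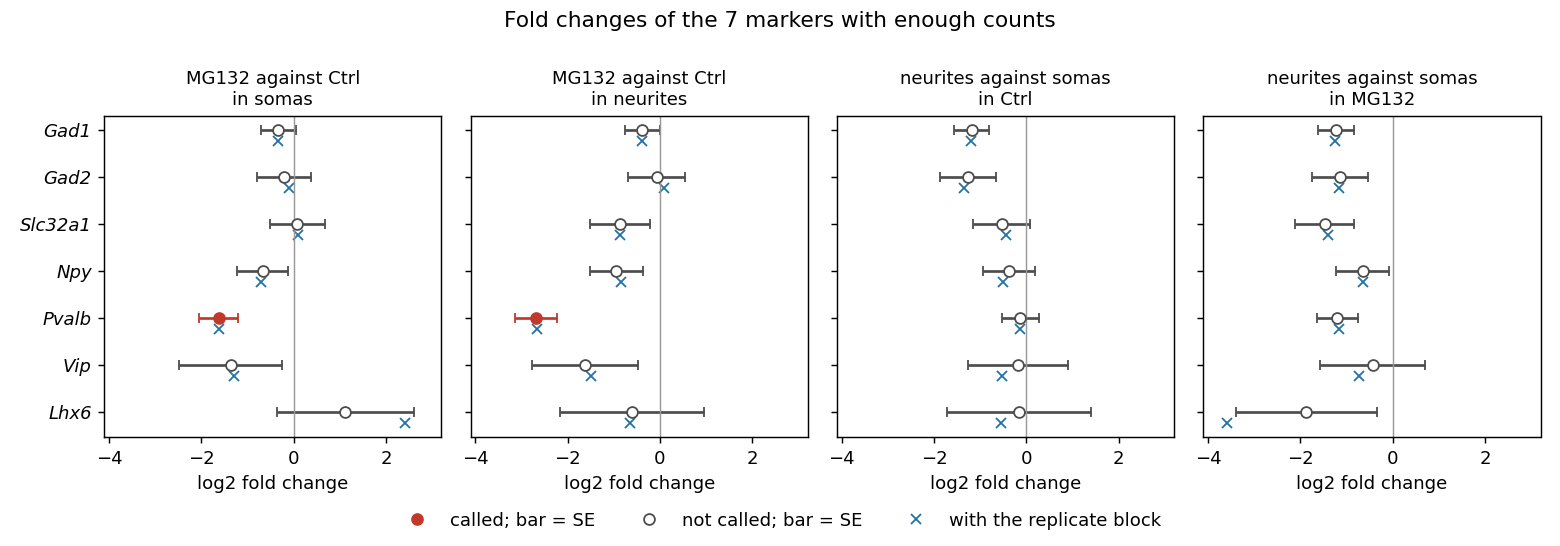
Log2 fold change (x axis) of the 7 tested markers (y axis) in the 4 comparisons, with bars of 1 SE from edgeR's fit to 12 libraries. Filled red points were called, open points were not, and crosses give the value with the replicate number as a block. Pvalb was called after MG132 in both fractions, at -1.63 in somas and -2.69 in neurites.

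The 2 responses of Pvalb to MG132 were compared by an interaction term. The response in neurites differed from that in somas by -1.07 on the log2 scale (SE 0.60, 95% interval -2.34 to 0.21), with an edgeR adjusted p of 0.777. No marker was called for a difference between the fractions, and none had an unadjusted p under 0.05. In edgeR the interaction was called for 0.0% of all genes (0 of 14185), with 1000 at an unadjusted p under 0.05, and DESeq2 called 27.

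Levels relative to other neuronal mRNAs of the same library do not depend on the scaling between libraries. Pvalb counts were 0.833%, 1.02% and 0.987% of the counts of the 10 pan-neuronal genes in Ctrl somas and 0.245%, 0.391% and 0.412% in MG132 somas. In neurites they were 0.874%, 0.877% and 0.686% in Ctrl and 0.0400%, 0.182% and 0.219% after MG132. The MG132 and Ctrl values did not overlap in either fraction. The same share for Gad1 was 3.35%, 9.86% and 4.87% in Ctrl somas and 3.98%, 9.38% and 3.28% in MG132 somas, which overlapped. Relative to Gad1, Pvalb counts were 0.104 to 0.249 in Ctrl somas and 0.0417 to 0.126 in MG132 somas, which overlapped, and 0.243 to 0.492 in Ctrl neurites and 0.0207 to 0.173 in MG132 neurites, which did not. Between libraries of the same number this ratio was lower after MG132 in 3 of 3 soma pairs (0.249 to 0.0617, 0.104 to 0.0417 and 0.203 to 0.126) and in 3 of 3 neurite pairs.

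**Figure D3:**
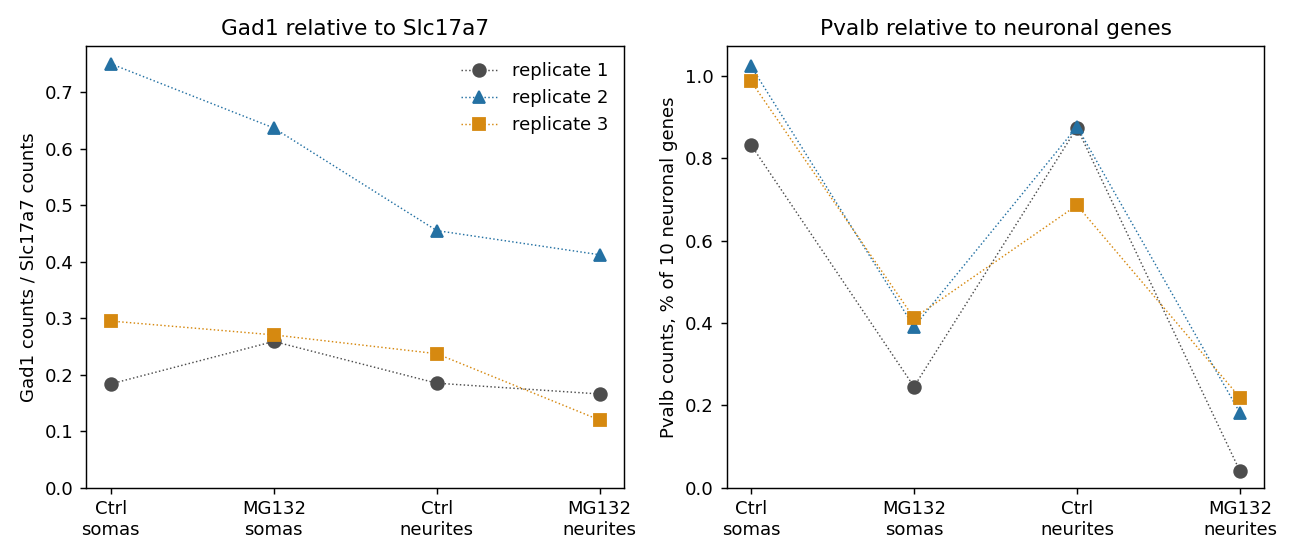
Left, counts of Gad1 divided by counts of the excitatory marker Slc17a7 in each library; right, counts of Pvalb as a percentage of the counts of 10 pan-neuronal genes. The x axis gives the 4 groups and the dotted lines join libraries with the same replicate number. The libraries numbered 2 lie at 0.412 to 0.750 on the left, above the others, and on the right the MG132 libraries, at 0.0400 to 0.412%, lie below the Ctrl libraries, at 0.686 to 1.02%.

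Which of these mRNAs were more abundant in somas than in neurites was asked within each treatment. No marker was called in the main test in Ctrl cultures, where 7.42% of all genes were called and 1.28% were called lower in neurites, or in MG132 cultures, where 9.0% were called and 2.08% were called lower. The nearest to a call was Gad1, with a log2 fold change of -1.18 in Ctrl cultures (SE 0.38, edgeR adjusted p = 0.0508) and -1.23 in MG132 cultures (SE 0.39, edgeR adjusted p = 0.0384). Its neurite libraries lay below its soma libraries without overlap in both treatments, as did those of 15.9% and 17.9% of genes. In MG132 cultures Slc32a1 and Pvalb did not overlap either. When the replicate number was kept as a block, Gad1 was called in both treatments, at -1.20 (edgeR adjusted p = 0.000112) and -1.24 (edgeR adjusted p = 8.05e-05).

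Gad2 gave the same pattern over a wider spread. Its log2 fold change was -1.27 in Ctrl cultures (SE 0.61, edgeR adjusted p = 0.19) and -1.14 in MG132 cultures (SE 0.61, edgeR adjusted p = 0.22), and its neurite and soma libraries overlapped. Leaving out 1 library moved the Ctrl value from -2.30 without Ctrl neurites replicate 2 to -0.57 without Ctrl somas replicate 2. It was lower in neurites in 3 of 3 pairs of libraries with the same number in each treatment. With the replicate block it was called in both, at -1.35 (edgeR adjusted p = 0.000951) and -1.16 (edgeR adjusted p = 0.00311). Without the libraries numbered 2, Gad1 had log2 fold changes of -1.07 and -1.06 and Gad2 of -1.51 and -0.97, none called in the main test. The median of the 7 tested markers moved from -0.37 to -1.07 in Ctrl cultures and from -1.20 to -0.98 in MG132 cultures, again with Dlx1 in place of Lhx6.

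The remaining markers gave no call between fractions with or without the block. In Ctrl cultures the log2 fold changes of neurites against somas were -0.13 for Pvalb (SE 0.40), -0.53 for Slc32a1 (SE 0.62), -0.37 for Npy (SE 0.56), -0.17 for Vip (SE 1.08) and -0.16 for Lhx6 (SE 1.56). In MG132 cultures they were -1.20 for Pvalb (SE 0.44, edgeR adjusted p = 0.0774), -1.47 for Slc32a1 (SE 0.64, edgeR adjusted p = 0.129), -0.65 for Npy (SE 0.57), -0.44 for Vip (SE 1.15) and -1.87 for Lhx6 (SE 1.53). Leaving out 1 library moved Lhx6 there from -6.85 to -1.39, Npy from -0.91 to -0.017 and Vip from -1.15 to 0.35. With the block Lhx6 stood at -3.59 in MG132 cultures. The 95% interval for Pvalb in Ctrl cultures was -0.98 to 0.72. Leaving out 1 library turned the sign in Ctrl cultures for Pvalb (-0.45 to 0.058) and Npy (-0.91 to 0.041). It did so too for Vip (-1.63 to 0.29) and Lhx6 (-5.91 to 1.87). Slc32a1 was higher in Ctrl neurites in 2 pairs of libraries with the same number and lower in 1. Its value turned positive without the libraries numbered 2.

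Scaling bears on this comparison. All 6 neurite libraries had TMM factors of 0.567 to 0.999 and all 6 soma libraries of 1.18 to 1.44. Mitochondrial genes held 9.78% to 17.1% of the counts in soma libraries and 13.5% to 29.2% in neurite libraries. The neurite libraries numbered 1 were the highest (29.2% in Ctrl and 28.98% in MG132). The most heavily counted gene was the same in every library, Entrez 100861531. It took 12.4% to 24.97% in somas and 17.0% to 33.4% in neurites. The part of these shares in the differences between fractions was not tested. On total counts the median log2 fold change of all tested genes was -0.70 in Ctrl and -0.86 in MG132 cultures, where it was -0.04 and -0.08 with TMM. On total counts Gad1 stood at -1.84 and -1.95 and was called in both treatments, and Pvalb was called in MG132 cultures at -1.97. For MG132 against Ctrl in neurites that median moved from -0.16 to -0.30.

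Of the enzymes and transporters that clear GABA, 5 of 6 were tested, Abat and Aldh5a1 being the highest per kilobase. After MG132, 3 of the 5 fell in somas, where 5.58% of all genes were called lower: Aldh5a1, the second enzyme of GABA breakdown, Slc6a11, the GABA transporter of astrocytes, and Slc6a13, a GABA transporter best known from the meninges. Aldh5a1 fell from 53.2 ± 8.36 to 18.3 ± 0.962 CPM in somas (log2 fold change -1.54, SE 0.21) and from 72.4 ± 9.13 to 23.5 ± 5.20 CPM in neurites (-1.61, SE 0.21; SD, n = 3), and it was called in all 6 fits that left out 1 library in each fraction. Slc6a11 (log2 fold change -1.37, SE 0.35) kept its call in 1 of those 6 fits, and Slc6a13 went from 6.29 ± 2.76 to 0.0445 ± 0.0463 CPM and kept it in 4. In neurites Aldh5a1 was the 1 of 5 called, beside 5.44% of all genes called lower. Abat, the transaminase that begins GABA breakdown, was higher in neurites than in somas, by 1.40 (SE 0.20) in Ctrl and 1.11 (SE 0.20) in MG132 cultures on the log2 scale, where 6.15% and 6.92% of all genes were called higher. With the libraries numbered 2 left out, Aldh5a1 kept its call in both fractions and Abat in Ctrl cultures, while Slc6a11, Slc6a13 and Abat in MG132 cultures lost theirs (edgeR adjusted p of 0.0235, 0.0125 and 0.0267).

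Of 17 other interneuron transcription factors, 10 were tested, with Sox6 among the highest per kilobase. In somas 2 of 10 fell after MG132 and in neurites 4 of 10, beside 5.58% and 5.44% of all genes called lower. Maf, a factor of interneurons that come from the medial ganglionic eminence, fell from 32.9 ± 2.36 to 6.58 ± 3.43 CPM in somas and from 35.7 ± 2.93 to 7.36 ± 0.281 CPM in neurites (log2 fold change -2.28 in both, SE 0.31). Maf is also expressed in microglia, whose markers fell in the same libraries. Which cells held the mRNAs of this list, or of the other lists, was not measured in these bulk libraries. In Ctrl somas Sox6 stood at 62.0 ± 6.88 CPM and Nr2f2 at 20.1 ± 1.03 CPM, where Lhx6 stood at 0.721 ± 1.02 CPM (SD, n = 3). In neurites Nr2f2, a nuclear receptor of interneurons from the caudal ganglionic eminence, fell by 1.97 (SE 0.37), and Satb1, a chromatin organizer of parvalbumin and somatostatin cells, by 1.31 (SE 0.25). Satb1 was also 1.35 higher in Ctrl neurites than in Ctrl somas on the log2 scale (SE 0.25), a call kept in 3 of 6 fits that left out 1 library. Maf was called in both fractions without the libraries numbered 2 as well, but Nr2f2 and Satb1 were not (edgeR adjusted p of 0.0154 and 0.0202 after MG132, and 0.0246 for Satb1 between fractions).

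Of 20 other peptides, calcium-binding and secreted proteins of interneurons, 12 were tested, with Cxcl14 and Cck the highest per kilobase over the 12 libraries. In Ctrl somas the mean of Penk, the enkephalin precursor, named here after its values were seen, was above that of Cck (9.85 against 6.42 CPM per kb), but it rested on library 2, with 38.0 CPM there and 1.31 and 8.94 CPM in libraries 1 and 3. All 12 had a negative log2 fold change after MG132 in somas, with a median of -1.36 beside -0.07 over all tested genes. The chemokine Cxcl14 was the 1 of 12 called (27.8 ± 3.09 to 6.37 ± 1.57 CPM, log2 fold change -2.10, SE 0.31), a share near the 5.58% of all genes called lower. None of the 12 was called in neurites, although 11 were negative. Cxcl14 was 1.71 higher on the log2 scale in MG132 neurites than in MG132 somas (SE 0.31), 1 of 12 where 6.92% of all genes were called higher. Of 12 tested receptors, channels and synaptic proteins of interneurons, led by Cnr1 and Cxcr4 per kilobase, none was called after MG132 in somas. In neurites 1 of 12 fell, the chemokine receptor Cxcr4 (log2 fold change -2.38, SE 0.44), near the 5.44% of all genes called lower. On leaving out the libraries numbered 2, the fall of Cxcl14 in somas stayed called, and its difference between MG132 fractions and the fall of Cxcr4 did not (edgeR adjusted p of 0.0518 and 0.0206).

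Between the fractions, Cnr1, the cannabinoid receptor of cholecystokinin interneuron terminals, was lower in neurites in both treatments (-1.28, SE 0.26, and -1.40, SE 0.26), calls kept in 3 of 6 and in 5 of 6 fits that left out 1 library. Kcnc1, the potassium channel of fast-spiking cells, was lower in Ctrl neurites (-1.71, SE 0.39), a call kept in 1 of 6 such fits. Cxcr4 was lower in MG132 neurites than in MG132 somas (-2.13, SE 0.43), a call kept in 3 of 6. These were 2 of 12 in each treatment, where 1.28% of all genes in Ctrl and 2.08% in MG132 cultures were called lower in neurites. The calls of Cnr1 and Kcnc1 in Ctrl cultures were kept without the libraries numbered 2, and those of Cnr1 and Cxcr4 in MG132 cultures were lost (edgeR adjusted p of 0.0256 and 0.0469).

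The receptors for the 3 peptides, of which 8 of 10 were tested and Sstr2 and Npy1r were highest per kilobase, gave no call in any of the comparisons. Of 11 proteins that process and store neuropeptides, all tested, 1 fell after MG132 in somas, the amidating enzyme Pam (log2 fold change -0.86, SE 0.20), which kept its call in 2 of 6 fits that left out 1 library, and none in neurites, where 5.58% and 5.44% of all genes were called lower. Carboxypeptidase E (Cpe), the highest of them per kilobase and also made by glia, was higher in neurites than in somas, by 1.17 (SE 0.17) in Ctrl and 1.36 (SE 0.17) in MG132 cultures. Scg3, a granin of dense-core vesicles and second highest, was 1.962 higher in MG132 neurites (SE 0.26), and Vgf, a secreted granin-like precursor of neurons, was lower there (log2 fold change -1.54, SE 0.32), a call kept in 3 of 6 fits that left out 1 library. Of all genes, 6.15% in Ctrl and 6.92% in MG132 cultures were called higher in neurites, and 2.08% in MG132 cultures lower. Cpe and Scg3 kept their calls when the libraries numbered 2 were left out, and Pam and Vgf did not (edgeR adjusted p of 0.0664 and 0.0111).

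Markers of other cells were compared in the same way, and those of glia moved with MG132. None of 10 excitatory neuron genes (Camk2a and Slc17a7 highest per kilobase) was called in somas or in neurites, and of the 10 pan-neuronal genes Stmn2 fell in neurites (log2 fold change -1.01, SE 0.24), a call kept in 1 of 6 fits that left out 1 library. In somas 7 of 10 astrocyte genes fell, with Aqp4, Fgfr3 and S100b the furthest, as did 3 of 10 genes of the oligodendrocyte lineage (Pdgfra, Sox10 and Olig1), 5 of 10 of microglia (with Cx3cr1, P2ry12 and Csf1r the furthest) and 3 of 6 of vessel and fibroblast cells (Pdgfrb, Col1a1 and Col1a2). In neurites 5 of 10 astrocyte genes, 4 of 10 of the oligodendrocyte lineage, 5 of 10 of microglia and 1 of 6 of vessel and fibroblast cells fell. Of all genes, 5.58% were called lower in somas and 5.44% in neurites. No gene of any of the lists was called higher after MG132, where 9.0% of all genes were in somas and 9.25% in neurites. Neither the 6 genes of dividing cells nor the 3 tested genes of Cajal-Retzius cells gave a call. All 6 genes of dividing cells had negative log2 fold changes in both fractions, though, with medians of -2.19 in somas and -1.07 in neurites. The medians over all tested genes were -0.07 and -0.16. When the libraries numbered 2 were left out, the genes that fell and stayed called were 6 of 7 for astrocytes, 2 of 3 for the oligodendrocyte lineage, 3 of 5 for microglia and 1 of 3 for vessel and fibroblast cells in somas, and 4 of 5, 2 of 4, 3 of 5 and 0 of 1 in neurites. Stmn2 lost its call (edgeR adjusted p = 0.0732), and 1 of 5 tested genes of dividing cells was then called lower in each fraction. Over all lists but the 9 markers, 38 of 69 calls in the 4 comparisons were kept, and all 69 had the same direction.

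The summed level of the astrocyte list was 5474 ± 602 CPM before and 2868 ± 423 CPM after MG132 in somas, and that of microglia 1189 ± 159 and 477 ± 156 CPM (SD, n = 3). Without Gfap the astrocyte list summed to 3507 ± 139.9 and 1590.4 ± 95.4 CPM in somas and to 5094 ± 439 and 2734 ± 237.8 CPM in neurites. The pan-neuronal list summed to 1317 ± 281 and 1178 ± 345 CPM in the same libraries, which overlapped. The excitatory list summed to 814 ± 353 and 629 ± 278 CPM, and the 9 interneuron markers to 167 ± 77.5 and 128 ± 49.8 CPM, both with overlapping libraries. In neurites the astrocyte list summed to 22888 ± 2871 CPM in Ctrl and 14002 ± 5306 CPM after MG132, the microglia list to 1123 ± 362 and 347 ± 87.0 CPM and the pan-neuronal list to 1367 ± 433 and 1290 ± 370 CPM. The oligodendrocyte lineage list summed to 3922 ± 2608 and 2831 ± 2954 CPM in somas and to 13738 ± 8575 and 8661 ± 6776 CPM in neurites. Its libraries overlapped in both fractions, though between libraries of the same number it was lower after MG132 in every pair. The part of these shifts in the fall of Pvalb was not tested.

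**Figure D4:**
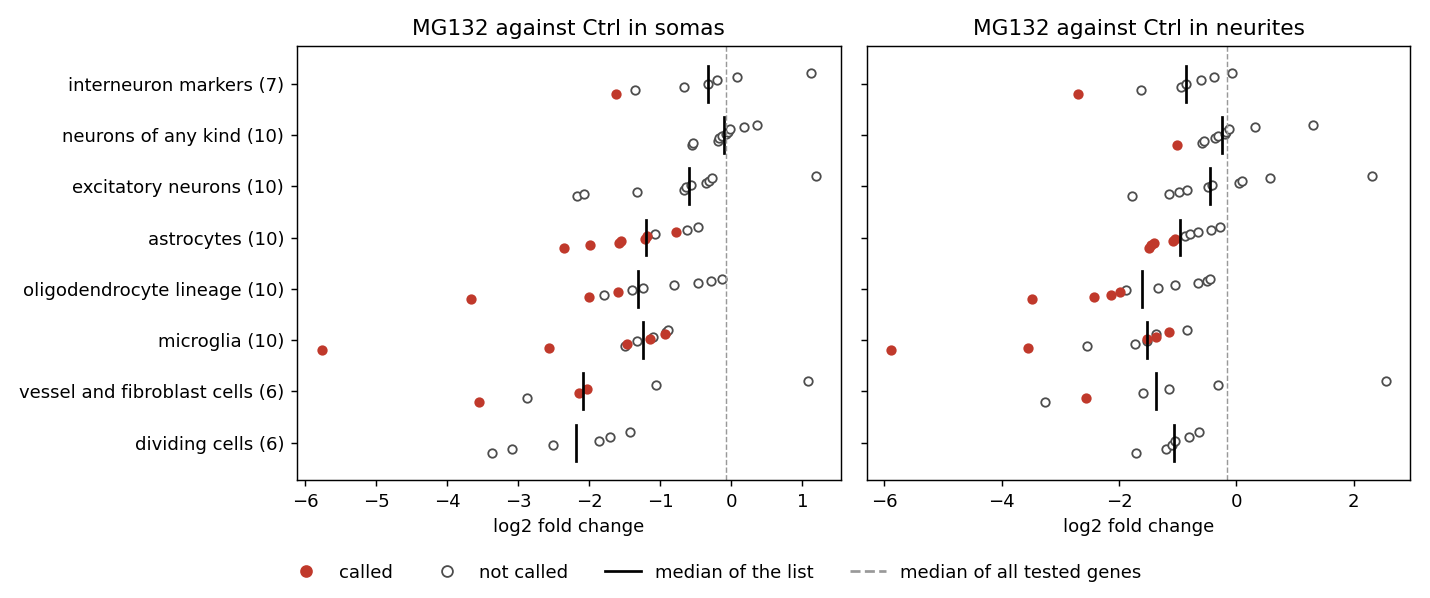
Log2 fold change after MG132 (x axis) of every tested gene in 8 marker lists (rows, with the number tested) in somas and neurites. Filled red points were called, the short vertical lines are medians of a list and the dashed line is the median of all tested genes. In each fraction 1 of 7 interneuron markers was called, where 14.6% of all genes were called in somas and 14.7% in neurites. Of 10 astrocyte genes, 7 were called in somas and 5 in neurites. The difference between the lists was not tested.

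The mean pattern of Gad1, Gad2 and Slc32a1 over the 12 libraries was set against that of every other gene with a mean of at least 1 CPM, by the root mean square difference of centred log2 CPM. The nearest genes were Ptprn, a protein of neuroendocrine secretory granules, at 0.182, then Rnf128 at 0.316, Rusc1 at 0.319, Pgap1 at 0.320 and Dhcr7, an enzyme of cholesterol synthesis, at 0.324. The median of 13615 genes was 1.01. Ptprn stood at a mean of 116 CPM in Ctrl somas, 105 in MG132 somas, 58.2 in Ctrl neurites and 45.3 in MG132 neurites, where Gad1 stood at 74.9, 59.8, 32.9 and 25.3 CPM. The 3 genes that made up the mean did not follow it equally, with Gad1 at 0.183, Gad2 at 0.448 and Slc32a1 at 0.542, so Gad2 and Slc32a1 were further from it than all 5 genes. The other tested markers were further still, at 0.888 for Npy, 1.12 for Lhx6, 1.23 for Pvalb and 1.38 for Vip. The 12 libraries share depth, fraction and replicate number, so this likeness is a description of them.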

How the data were processed

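PolyA-selected RNA of 12 libraries (4 groups of 3) was sequenced, in a paired-end run per the study's methods. The authors trimmed reads with Trimmomatic 0.38.0, aligned them as single-end reads to mm10 with STAR and counted them per Entrez gene with featureCounts 2.0.1 at its default settings, which use no strand, per the submitters' notes and the methods. The deposited values were raw counts. DESeq2 2.11.40.7 is named for the authors' own comparisons, which were not used here. Of 27179 genes, 25275 (93%) had a symbol in the RefSeq table, and no 2 libraries of 66 pairs were identical.

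Counts were tested in R 4.3.3 with edgeR 4.0.16 (filterByExpr, TMM, quasi-likelihood fit of 4 group means to all 12 libraries, Benjamini-Hochberg over 14185 genes). Calls needed an adjusted p under 0.01 and over 1.7-fold, the interaction an adjusted p under 0.01. DESeq2 1.42.0, total counts, other filters and thresholds, left-out libraries and a replicate block were alternatives. Lengths are union exon lengths of GENCODE M21 (GRCm38), and the floor was 3 counts. Depth sets the precision: 1 count in the shallowest library weighs more than in the deepest, and 95% intervals, from the fit's SE and t quantile, cover the spread between libraries.

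Libraries of a number share deviations: in each of the 4 comparisons every same-number pair of libraries correlated at r = 0.165 or more across genes, and 12 of 12 libraries correlated best with their own number. The numbers come from the sample titles and were taken to pair the libraries.

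The 9 genes and the other lists were chosen with earlier results of these data known. Named were all 9 genes, called genes with up to the 3 largest changes in each direction of a list, the 2 genes highest per kilobase over the 12 libraries and the 5 nearest profiles, except a few that are not reported here.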

Additional observations from a re-analysis of the deposited data

How the results depend on the processing

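Of 554 values of single markers under alternatives, 486 kept their direction and side of the threshold and 48 changed sign, all of them in comparisons where the marker was not called. The alternatives without the libraries numbered 2 were chosen after seeing the data. For MG132 against Ctrl in somas, where 1 marker (Pvalb) and 2068 genes were called, 0 markers were called on total counts (910 genes), with at least 10 counts in every library (9597 genes tested, Pvalb not among them), above a log2 fold change of 1.7 (644 genes), without the libraries numbered 2 (829 genes) and in the fits leaving out 1 library (0 to 0 markers, 1312 to 1659 genes). For neurites, where 1 marker and 2084 genes were called, 0 markers were called with at least 10 counts in every library and without the libraries numbered 2 (992 genes), and total counts gave 1019 genes and a log2 fold change above 1.7 gave 657. At an adjusted p under 0.05 the 2 comparisons called 3897 and 3823 genes. Between fractions in Ctrl cultures (0 markers, 1053 genes), 1 marker (Gad1) was called on total counts and with no count filter and 2 with the replicate block (1768 genes); the gene count was 1609 by DESeq2, 546 without the libraries numbered 2, 349 above a log2 fold change of 1.7, 2111 at an adjusted p under 0.05 and 674 to 978 on leaving out 1 library. In MG132 cultures (0 markers, 1277 genes), 2 markers were called on total counts (2256 genes) and with the replicate block (2086 genes), and 1 (Gad1) with no count filter and at an adjusted p under 0.05 (2516 genes); 346 genes were called without the libraries numbered 2, 362 above a log2 fold change of 1.7 and 762 to 1006 on leaving out 1 library. The interaction called 0 genes as reported, 27 by DESeq2 and 21 with the replicate block; DESeq2 gave no adjusted p there for 5 of the 7 markers. The block changed no other call of a marker.

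The cause of the changes of sign was not tested. In the fits leaving out 1 library, the log2 response in somas ran from -0.60 to 0.10 for Gad1 and from -0.49 to 0.59 for Gad2, both highest without Ctrl somas replicate 2, and from -0.29 to 0.59 for Slc32a1. The response in neurites ran from -0.59 to 0.026 for Gad1, from -0.35 to 0.96 for Gad2 and from -5.55 to 5.12 for Lhx6, the last 2 highest without Ctrl neurites replicate 2. Between Ctrl fractions the values ran from -0.91 to 0.041 for Npy, -0.45 to 0.058 for Pvalb, -1.63 to 0.29 for Vip and -5.91 to 1.87 for Lhx6, and between MG132 fractions from -1.15 to 0.35 for Vip. The interaction ran from -0.36 to 0.34 for Gad1, -0.54 to 1.17 for Gad2, -0.68 to 0.35 for Npy, -0.98 to 1.18 for Vip and -6.67 to 4.001 for Lhx6. Without the libraries numbered 2, Gad2 was 0.30 in somas and 0.84 in neurites, Slc32a1 was 0.29 between Ctrl fractions, and the interaction was 0.0096 for Gad1, 0.44 for Npy and 0.14 for Vip. With no count filter, Gad2 in neurites was 0.080 and the interaction of Gad1 0.074; with the replicate block, Gad2 in neurites was 0.083. Depth limits Sst, Dlx1, Lhx6 and Vip, each with libraries at 0 counts.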
